A study of Mus musculus with 8 samples.

Results

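The genes described here are 43 genes of DNA replication and nucleotide synthesis, out of 55421 gene rows in the deposited count table. They were chosen by name, from their known roles, with earlier results of these data known. Of them, 9 act in origin licensing and firing, 12 belong to the MCM and CMG helicase and 6 to the polymerases and primase. A further 9 belong to the sliding clamp, its loader and the RPA complex, 2 join Okazaki fragments and 5 supply deoxynucleotides. All 43 were found in the table, and all 43 passed the filter on low counts. RNA was sequenced from splenic germinal centre B cells of C57BL/6 mice aged 8 to 10 weeks, taken at day 10 after immunization and isolated with a PNA microbead kit. The mice were Smarca4+/+ or Smarca4+/-, and the cells of each genotype were split into fractions with the labels CB and CC, taken here to be centroblasts and centrocytes. Each of the 4 groups (Smarca4+/+ CB, Smarca4+/- CB, Smarca4+/+ CC, Smarca4+/- CC) had 2 libraries, and all came from immunized mice. How the Smarca4+/- allele was made, which cells carried it and how CB and CC were separated: none of this is given in the sources used here. It is also not stated whether the libraries of a group came from separate mice, so p-values measure only how libraries differ, and that spread may be technical.

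Replication starts at origins, where the origin recognition complex, Cdc6 and Cdt1 load the Mcm2 to Mcm7 ring. The kinase Cdc7 with its activator Dbf4, and the cyclin E kinases, then fire origins by turning that ring, joined by Cdc45 and GINS, into the active CMG helicase. Polymerase alpha and primase start each strand, the Pcna clamp loaded by RFC holds polymerases delta and epsilon on the template, RPA coats single strands, and Fen1 and Lig1 finish the lagging strand. Ribonucleotide reductase (Rrm1, Rrm2), Tyms, Tk1 and Dut set the supply of deoxynucleotides. In the germinal centre, centroblasts of the dark zone divide rapidly, while centrocytes of the light zone are selected by antigen and T cells. Many of these genes are textbook targets of E2F factors, which drive the G1/S transition. The protein of Smarca4 (Brg1) is the motor of SWI/SNF complexes, which move nucleosomes.

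The promoters of 4 members are printed because they show how the family differs in these letters: Mcm5, Mcm6 and Pola1 hold E2F letters upstream of the start and Rrm2 does not. Sequences are from RefSeq, build GRCm38.p6, on the strand of the gene, 5′ to 3′. They run up to the base before the RefSeq start, or before the first exon annotated in GENCODE where that comes earlier, as in Rrm2. Capitals mark E2F letters (TTTCCCGC, TTTGGCGC, TTTCGCGC or TTTGCCGC, either strand) and the letters CCAAT, either strand. In Mcm5 and in Mcm6 a pair of E2F matches on opposite strands overlap, so they form a single run of capitals. The stretch of Mcm5 is chr8:75109259-75109508 (plus strand), that of Mcm6 chr1:128359706-128359955 (minus), that of Pola1 chrX:93632156-93632405 (minus) and that of Rrm2 chr12:24708004-24708240 (plus).
Mcm5: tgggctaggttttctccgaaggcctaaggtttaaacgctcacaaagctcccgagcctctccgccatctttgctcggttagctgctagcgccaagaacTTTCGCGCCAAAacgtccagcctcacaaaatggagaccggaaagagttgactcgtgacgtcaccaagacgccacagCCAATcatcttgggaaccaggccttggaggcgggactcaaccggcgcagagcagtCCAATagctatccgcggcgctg
Mcm6: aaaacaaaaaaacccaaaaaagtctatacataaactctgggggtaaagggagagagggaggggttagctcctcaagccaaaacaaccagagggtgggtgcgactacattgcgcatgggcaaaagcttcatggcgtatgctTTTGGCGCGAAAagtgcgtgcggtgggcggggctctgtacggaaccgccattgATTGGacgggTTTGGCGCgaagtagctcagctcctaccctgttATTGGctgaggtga
Pola1: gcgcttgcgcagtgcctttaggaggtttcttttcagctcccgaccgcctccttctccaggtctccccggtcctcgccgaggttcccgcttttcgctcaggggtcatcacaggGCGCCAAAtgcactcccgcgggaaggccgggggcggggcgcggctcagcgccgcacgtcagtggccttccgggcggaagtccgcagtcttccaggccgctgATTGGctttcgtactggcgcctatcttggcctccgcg
Rrm2: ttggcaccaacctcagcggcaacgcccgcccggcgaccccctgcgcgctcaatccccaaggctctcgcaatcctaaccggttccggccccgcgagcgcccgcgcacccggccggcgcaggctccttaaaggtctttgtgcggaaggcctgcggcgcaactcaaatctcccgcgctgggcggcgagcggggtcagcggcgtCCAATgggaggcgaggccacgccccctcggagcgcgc
Of the 43 members, 35 matched the promoter table, with 41 windows of 300 bases (250 before to 50 after a start). The members not matched were Mcm4, Gins1, Gins2, Gins4, Pole, Prim2, Rfc2 and Ccne2. The E2F letters were in 12 of the 41 windows (29.3%), against 2.26% of the 32851 windows of all genes. They were in windows of Cdc6, Cdt1, Orc1, Mcm3, Mcm5, Mcm6, Mcm7, Gins3, Pola1, Pold1, Rfc3 and Lig1. The CCAAT letters were in 56.1% of the members' windows and in 37.4% of all windows. Among members that passed the test between CC and CB in either genotype (described later), 33.3% of 12 windows held E2F letters. Of the 29 windows of the other members, 27.6% did. In the 250 bases before the start alone the order was reversed, at 16.7% and 20.7%. A match is a description of letters and not of binding.

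The fractions differed greatly in depth: a CB library had 18357578 to 24341805 counts in total, a CC library 526353 to 837558, and the ratio of the mean totals was 32.7. The median over members was 1597 to 1878 counts in a CB library and 24 to 73 in a CC library, and 8 to 20 members had under 20 counts in a CC library. Most low counts were even numbers (75.9% to 81.6% of counts of 1 to 10 in CB and 86.5% to 92.6% in CC), so counting intervals from single counts are too narrow. The labelled fractions were checked against marker genes. The summed level of 5 dark zone markers was 1210 to 1412 CPM (counts relative to the library total, scaled by TMM factors) in CB and 368 to 518 in CC, while that of 8 light zone markers was 351 to 418 in CB and 927 to 1303 in CC. Markers of macrophages, T cells and erythroid cells were higher in CC. The summed level of 10 macrophage markers was 43.2 to 234 CPM in CB and 1465 to 3448 in CC. That of 10 T cell markers was 112 to 139 (of which Lck made up 108 to 132) and 231 to 561, and that of 10 erythroid markers 5.43 to 12.8 and 128 to 785. The summed level of 7 plasma cell markers overlapped, at 473 to 584 CPM in CB and 428 to 543 in CC. For 8 stromal and endothelial markers the summed level was 40.5 to 53.7 CPM in CB and 103 to 172 in CC. In each library 3 to 5 of these 8 were at 0 counts. In CB, Smarca4 itself was at 897 and 1002 CPM in Smarca4+/+ and at 734 and 702 in Smarca4+/- libraries, and in CC at 322 and 316 against 244 and 311. Its genotype difference did not pass the test in CB (log2 fold change -0.40, SE 0.17, edgeR adjusted p = 1) or in CC (-0.20, SE 0.18, edgeR adjusted p = 0.607).

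**Figure D1:**
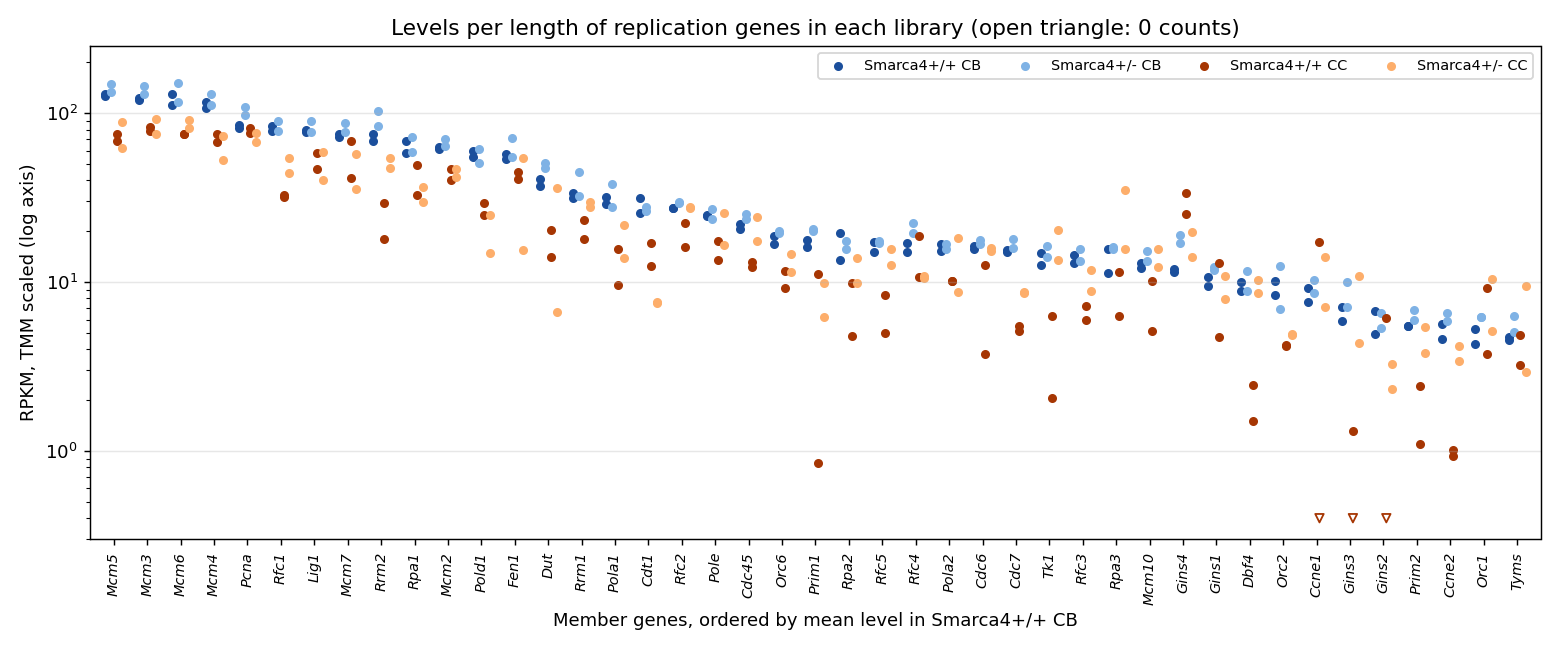
Level per length (RPKM, log axis) of the 43 members in each of the 8 libraries, ordered by the mean in Smarca4+/+ CB, with an open triangle for a library at 0 counts. In Smarca4+/+ CB, Mcm5, Mcm3, Mcm6 and Mcm4 lead and Tyms is lowest, and the CC points scatter more than the CB points.

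Levels per length (RPKM, the CPM per kilobase of exons) spanned from 128 for Mcm5 to 4.64 for Tyms in Smarca4+/+ CB (means of 2 libraries). The length is the deposited exon length of a gene, so orders between genes depend on it as well as on counts. The subunits of the Mcm ring were among the highest. Mcm5 stood at 129 and 127 RPKM, Mcm3 at 121 on average, Mcm6 at 120, Mcm4 at 112, Mcm7 at 73.5 and Mcm2 at 62.1. The helicase helper Mcm10 (12.6) and the helicase cofactor Cdc45 (21.3) were lower. The 4 GINS subunits, which complete the active helicase, ranged from 5.83 RPKM for Gins2 to 11.8 for Gins4. Genes of a single complex thus differed in level per length: Rfc1, the large subunit of the clamp loader, stood at 81.7 RPKM and the small subunits Rfc2 to Rfc5 at 13.7 to 27.5. Rpa1, the large subunit of RPA, stood at 63.4 RPKM, with Rpa2 at 16.5 and Rpa3 at 13.5.

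Pcna, the sliding clamp, stood at 85.1 and 82.2 RPKM in Smarca4+/+ CB, and was the highest of its role group per length. In CPM Rfc1 was higher than Pcna (492 against 201 on average). Among polymerase genes, Pold1, the catalytic subunit of polymerase delta, was highest (55.3 and 59.5 RPKM) and Prim2, the large primase subunit, lowest (5.48 and 5.49). Cdt1 was the highest licensing gene (25.8 and 31.3 RPKM) and Orc1, a subunit of the origin recognition complex, the lowest (5.31 and 4.31). Lig1, the ligase that seals Okazaki fragments, stood at 77.6 and 79.8 RPKM and Fen1, the flap nuclease, at 57.6 and 53.8. Rrm2, the small subunit of ribonucleotide reductase, led the nucleotide genes per length at 68.5 and 75.0 RPKM. Rrm1, the large subunit, stood at 32.7 RPKM on average. In CPM Rrm1 was the higher, at 360 on average (11012 exon bases) against 199 for Rrm2 (2771 bases). Tyms, thymidylate synthase, was the lowest of all members per length at 4.52 and 4.76 RPKM. In CPM it was not the lowest, at 28.3 on average against 15.3 for Gins1.

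Repeat libraries were close in CB and less so in CC. The median member differed 1.09-fold between the 2 libraries of Smarca4+/+ CB and 1.14-fold between those of Smarca4+/- CB, and no member of the 43 differed by over 2-fold. In Smarca4+/+ CC the median was 1.36-fold over the 40 members above 0 in both libraries, with 7 members over 2-fold (Prim1 13.1-fold), and in Smarca4+/- CC it was 1.39-fold, also with 7 over 2-fold (Dut 5.4-fold). Ccne1 had 0 counts in Smarca4+/+ CC replicate 1, and Gins2 and Gins3 had 0 in replicate 2. A count of 0 over both libraries of a group allows up to 3 counts, for counting error only. Those 3 counts equal 0.073 and 0.0754 CPM in CB (Smarca4+/+ and Smarca4+/-) and 2.56 and 1.88 CPM in CC. The 0 counts named above each stand in a single library, where 3 counts equal a higher CPM than over both libraries. Reads were not marked by molecule.

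The first comparison asks how replication genes differ between the fractions of Smarca4+/+ mice. Of the 43 members, 9 fell in CC against CB, 0 rose and 34 did not pass the test (edgeR, adjusted p at 0.05 over 12997 genes). Among all genes tested, 3.76% fell and 3.72% rose. The members that fell were the kinase pair Cdc7 and Dbf4, Mcm5, Pola1, Pold1, Rfc1, Rfc5, Rrm2 and Tk1. The median log2 fold change (CC over CB) of the members was -0.75, against -0.19 for all genes tested, and 40 members were below 0. Both CC libraries lay below both CB libraries for 35 members (38.5% of all genes did so), both lay above for 1 member (18.2%), and 7 overlapped. The summed level of the members was 7143 and 7051 CPM in CB and 4115 and 4321 CPM in CC, a ratio of 0.594. The 10 germinal centre B cell markers summed to 4355 and 4044 CPM in CB and 2981 and 3212 CPM in CC, a ratio of 0.737, with 9 of 10 below 0 (median log2 fold change -0.45). In bulk libraries fewer cells of a type and less RNA per cell cannot be told apart.

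**Figure D2:**
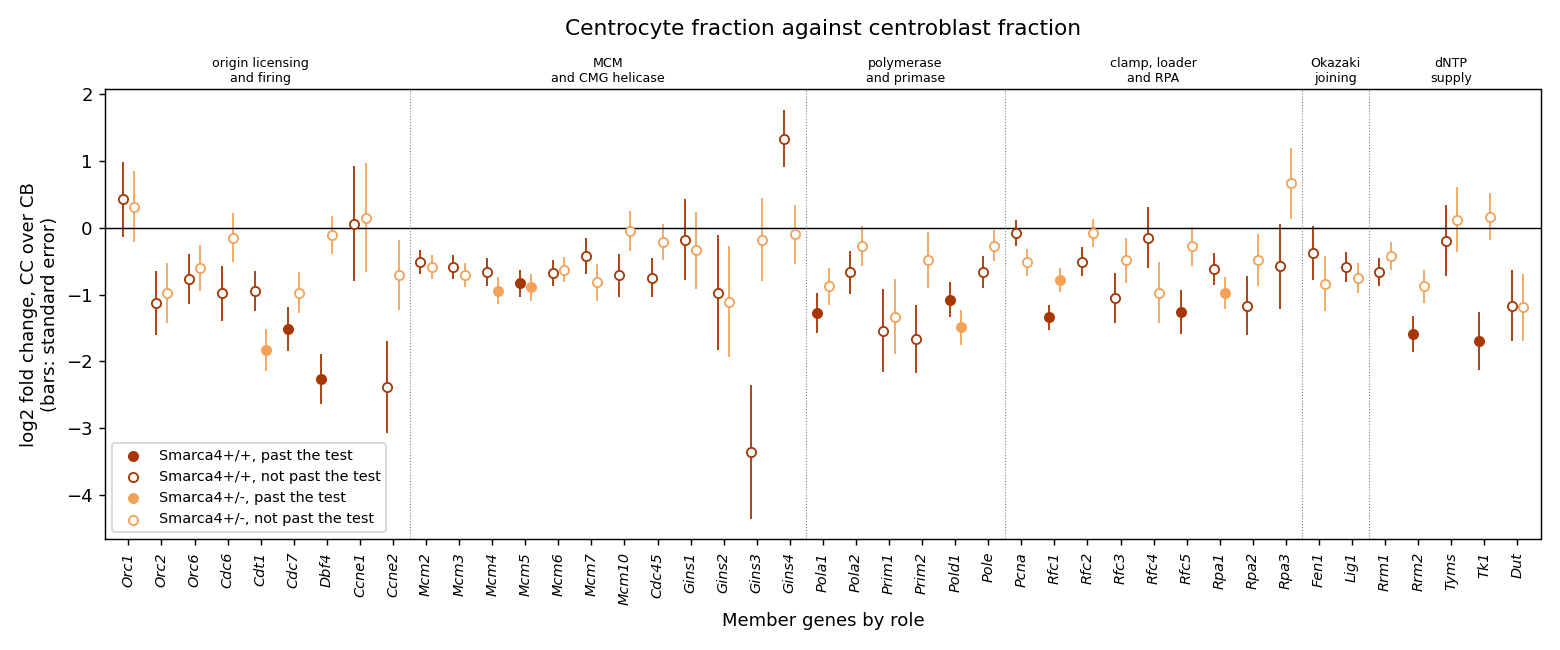
Fitted log2 fold change of CC over CB for each member by role (bars: standard error), in Smarca4+/+ (dark) and Smarca4+/- (light), filled where the edgeR test was passed. Filled points number 9 in Smarca4+/+ and 6 in Smarca4+/-, all below 0.

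Among licensing and firing genes, 2 of 9 fell in Smarca4+/+ CC. Dbf4, the activating subunit of the Cdc7 kinase, stood at 76.9 and 87.7 CPM in CB and at 21.4 and 13.1 in CC. The CC libraries did not overlap the CB libraries, and Dbf4 fell by 2.26 on the log2 scale (SE 0.37, edgeR adjusted p = 0.00481). Cdc7 stood at 63.2 and 64.3 CPM in CB and at 21.4 and 22.9 in CC, and fell by 1.52 (SE 0.33, edgeR adjusted p = 0.0202). Cyclin E2 (Ccne2) was 16 and 19.7 CPM in CB and 3.57 and 3.27 in CC, with a log2 fold change of -2.38 (SE 0.69) that missed the threshold (edgeR adjusted p = 0.0615). Cyclin E1 (Ccne1) was 24.6 and 20.2 CPM in CB and 0 and 45.8 in CC, so its 2 CC libraries lay on opposite sides of CB. Cdc6, which loads the helicase, was 81.9 and 85.1 CPM in CB and 66.1 and 19.6 in CC, a wide CC spread. Cdt1, its partner in loading, was 81.1 and 98.3 CPM in CB and 53.6 and 39.2 in CC (log2 fold change -0.95, SE 0.30, edgeR adjusted p = 0.0808). The origin recognition subunits did not pass, with log2 fold changes of 0.42 (SE 0.56) for Orc1, -1.13 (SE 0.48) for Orc2 and -0.77 (SE 0.37) for Orc6.

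Of the 12 genes of the helicase, 1 fell in Smarca4+/+ CC. Mcm5 stood at 513 and 508 CPM in CB and at 272 and 302 in CC, without overlap, and fell by 0.83 on the log2 scale (SE 0.20, edgeR adjusted p = 0.0308). The other 5 subunits of the Mcm2 to Mcm7 ring had log2 fold changes of -0.42 to -0.68, none past the test, and the summed level of the ring was 0.648 of its CB level. Gins4 was the member with both CC libraries above CB: 15.5 and 16.2 CPM in CB and 34 and 45.8 in CC (1.33, SE 0.43, edgeR adjusted p = 0.0907). Its partner Gins3 went the other way with 2 counts in the 2 CC libraries together, against 728 in CB. The scaled ratio of CB over CC was 10.4 (95% exact counting interval 2.86 to 85.8, too narrow because most low counts were even). The Gins3 difference did not pass the test (edgeR adjusted p = 0.0668). Nor did Mcm10 (-0.71, SE 0.32), Cdc45 (-0.75, SE 0.29), Gins1 (-0.18, SE 0.60) or Gins2 (-0.97, SE 0.86), which was 20.1 and 27.6 CPM in CB and 25 and 0 in CC.

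Among the 6 polymerase and primase genes, 2 fell in Smarca4+/+ CC and all 6 had both CC libraries below both CB libraries. Pola1, the catalytic subunit of polymerase alpha, went from 254 and 282 CPM to 138 and 85.0 and fell by 1.27 (SE 0.30, edgeR adjusted p = 0.0263). Pold1 went from 269 and 289 CPM to 143 and 121 and fell by 1.08 (SE 0.26, edgeR adjusted p = 0.0296). Pole, the catalytic subunit of polymerase epsilon, had a log2 fold change of -0.66 (SE 0.24) that did not pass (edgeR adjusted p = 0.127). The accessory subunit Pola2 was 127 and 139 CPM in CB and 84 and 83.4 in CC. For the primase subunits the CC libraries were far apart or low, with 68.7 and 62.6 CPM in CB and 42.9 and 3.27 in CC for Prim1, and 32.6 and 32.6 in CB and 14.3 and 6.54 in CC for Prim2.

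Of the 9 clamp, clamp loader and RPA genes, 2 fell in Smarca4+/+ CC, both in the clamp loader. Rfc1 stood at 508 and 475 CPM in CB and at 197 and 191 in CC, and fell by 1.34 (SE 0.19, edgeR adjusted p = 0.00281), the smallest adjusted p of the 43 members in this comparison. Rfc5, a small subunit, went from 80.4 and 70.6 CPM to 23.2 and 39.2 and fell by 1.26 (SE 0.33, edgeR adjusted p = 0.0423). Pcna was 204 and 197 CPM in CB and 182 and 196 in CC (log2 fold change -0.08, SE 0.20, edgeR adjusted p = 0.817). The other loader subunits had values of -0.51 (Rfc2), -1.05 (Rfc3) and -0.15 (Rfc4), and the RPA subunits of -0.62 (Rpa1), -1.17 (Rpa2) and -0.58 (Rpa3), none past the test. Neither Okazaki gene passed: the values were -0.38 (SE 0.41) for Fen1 and -0.59 (SE 0.22) for Lig1.

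Of the 5 nucleotide supply genes, 2 fell in Smarca4+/+ CC. Rrm2 stood at 190 and 208 CPM in CB and at 50 and 81.7 in CC, and fell by 1.59 on the log2 scale (SE 0.27, edgeR adjusted p = 0.00619). Tk1, the thymidine kinase of the salvage route, went from 65.3 and 76.8 CPM to 10.7 and 32.7 and fell by 1.69 (SE 0.43, edgeR adjusted p = 0.0383). The log2 fold change of Rrm1 was -0.66 (SE 0.21, edgeR adjusted p = 0.0911), that of Dut, which clears dUTP, -1.17 (SE 0.53, edgeR adjusted p = 0.212) and that of Tyms -0.20 (SE 0.53, edgeR adjusted p = 0.844).

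The count of 9 ranged from 2 to 16 as each of the 8 libraries was left out in turn: it was 3 without Smarca4+/+ CB replicate 1, 2 without its replicate 2, 3 without either Smarca4+/- CB library and 16 without either Smarca4+/- CC library. Rfc1 and Dbf4 kept their calls in all 8 of these fits. Rrm2 lost its call without Smarca4+/+ CB replicate 2, and the other 6 lost theirs in 4 to 6 of the 8 fits, with an edgeR adjusted p of up to 0.257 (Rfc5). For these 6 the call was lost without any of the 4 CB libraries. It was also lost without Smarca4+/+ CC replicate 1 for Mcm5, Tk1 and Rfc5 and without its replicate 2 for Mcm5, Pola1 and Pold1. The log2 fold change of Tk1 was -1.13 without Smarca4+/+ CC replicate 1 and -2.74 without replicate 2. The share of all genes called with a library left out is not given here. In the same CC libraries the 10 macrophage markers summed to 2820 and 2802 CPM (43.2 and 234 in CB), the 10 T cell markers to 534 and 561 (139 and 137) and the 10 erythroid markers to 636 and 785 (12.8 and 12.4). Of the T cell markers, Cd3e was at 0 counts in both CB libraries and at 50 and 98.1 CPM in CC, while no macrophage marker was at 0 in either CC library. The part of such cells in the difference was not tested.

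**Figure D3:**
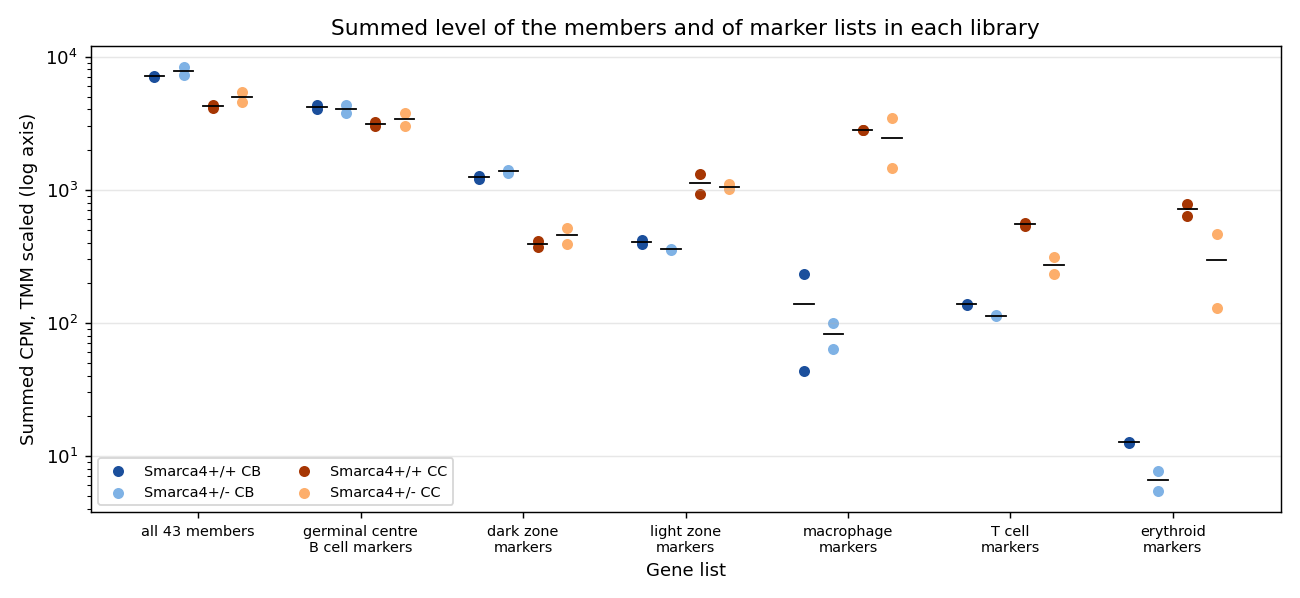
Summed CPM (log axis) of the 43 members and of 6 marker lists in each library, with a bar at the mean of each group. The members' sum lies between 7051 and 8321 in CB and between 4115 and 5380 in CC, while macrophage, T cell and erythroid markers are higher in CC.

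In Smarca4+/- mice, 6 of the 43 members fell in CC against CB, 0 rose and 37 did not pass (edgeR). Among all genes tested, 1.5% fell and 2.17% rose. The members that fell were Cdt1, Mcm4, Mcm5, Pold1, Rfc1 and Rpa1. The members' median log2 fold change was -0.59, against -0.08 for all genes tested, with 38 members below 0. Both CC libraries lay below both CB libraries for 31 members (33.2% of all genes), both above for 0 members (20.2%), and 12 overlapped. The summed level was 8321 and 7293 CPM in CB and 4535 and 5380 CPM in CC, a ratio of 0.635. The germinal centre B cell markers summed to 3776 and 4298 CPM in CB and 2995 and 3754 CPM in CC, a ratio of 0.836.

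The licensing gene Cdt1 had the lowest log2 fold change of the members in Smarca4+/- mice. It stood at 82.4 and 86.9 CPM in CB and at 24.0 and 23.7 in CC, and fell by 1.83 on the log2 scale (SE 0.31, edgeR adjusted p = 0.0105). Dbf4 was 101 and 76.9 CPM in CB and 74.8 and 90.1 in CC, so the fractions overlapped (log2 fold change -0.11, SE 0.29, edgeR adjusted p = 0.881). Cdc6 was 93.3 and 87.5 CPM in CB and 80.1 and 83.0 in CC (-0.15, SE 0.37). For the E cyclins the values were 23.1 and 27.5 CPM in CB and 37.4 and 19.0 in CC for Ccne1, and 22.9 and 20.5 in CB and 14.7 and 11.9 in CC for Ccne2, neither past the test. Cdc7 had a log2 fold change of -0.97 (SE 0.30, edgeR adjusted p = 0.109), and the 3 origin recognition subunits ranged from -0.98 (Orc2) to 0.31 (Orc1).

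Of the helicase genes, 2 of 12 fell in Smarca4+/- CC. Mcm4 went from 466 and 402 CPM to 190 and 263 and fell by 0.94 (SE 0.20, edgeR adjusted p = 0.0303), and Mcm5 went from 591 and 533 CPM to 250 and 356 and fell by 0.89 (SE 0.20, edgeR adjusted p = 0.0331). The other 4 subunits of the ring had log2 fold changes of -0.59 to -0.82, none past the test, and the ring summed to 0.594 of its CB level. Gins3 was 27.1 and 19.2 CPM in CB and 29.4 and 11.9 in CC, and Gins4 was 25.5 and 23.1 in CB and 26.7 and 19.0 in CC. Both overlapped. Mcm10 (-0.05), Cdc45 (-0.22), Gins1 (-0.34) and Gins2 (-1.11, SE 0.83) did not pass.

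Pold1 stood at 248 and 299 CPM in Smarca4+/- CB and at 72.1 and 122 in CC, and fell by 1.49 (SE 0.26, edgeR adjusted p = 0.0112). Rfc1 went from 543 and 475 CPM to 266 and 327 and fell by 0.78 (SE 0.18, edgeR adjusted p = 0.0393), and Rpa1 went from 403 and 327 CPM to 166 and 204 and fell by 0.98 (SE 0.24, edgeR adjusted p = 0.0452). Pcna was 261 and 233 CPM in CB and 183 and 161 in CC (-0.52, SE 0.20, edgeR adjusted p = 0.183). The other polymerase and primase genes ranged from -1.33 (Prim1) to -0.27 (Pola2 and Pole), the small loader subunits from -0.97 (Rfc4) to -0.08 (Rfc2), and Fen1 (-0.84) and Lig1 (-0.75) lay below 0. Rpa3 was the highest member at 0.66 (SE 0.53), with 18 and 18.4 CPM in CB and 40.1 and 17.8 in CC. None of the 5 nucleotide supply genes passed. Rrm2 was 285 and 231 CPM in CB and 131 and 149 in CC without overlap (-0.88, SE 0.25, edgeR adjusted p = 0.0797), and Tk1 was 73.5 and 85.0 CPM in CB and 70.8 and 106 in CC (0.16, SE 0.35, edgeR adjusted p = 0.858). Dut was 123 and 114 CPM in CB and 16 and 86.5 in CC, the widest spread between the libraries of this group, and Tyms was 38.1 and 30.6 in CB and 57.4 and 17.8 in CC.

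The count of 6 was 0 without Smarca4+/- CB replicate 1, without its replicate 2 or without Smarca4+/- CC replicate 1. It was 10 without Smarca4+/- CC replicate 2 or without either Smarca4+/+ CC library, and 2 without either Smarca4+/+ CB library. So each of the 6 calls rested on every one of those 3 Smarca4+/- libraries. Here too, the share of all genes called with a library left out is not given. Marker sums in the 2 Smarca4+/- CC libraries were 3448 and 1465 CPM for macrophages (99.9 and 63.3 in CB), 310 and 231 for T cells (114 and 112) and 467 and 128 for erythroid cells (7.75 and 5.43). No macrophage marker was at 0 in either CC library, and the part of such cells was not tested.

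Mcm5, Pold1 and Rfc1 fell in both genotypes, which is 3 of the 9 members that fell in Smarca4+/+ and 3 of the 6 in Smarca4+/-. A member past the threshold in a single genotype is not thereby shown to differ between genotypes, and that difference was tested as the interaction, which 0 members passed in edgeR and 2 (Dbf4 and Tk1) in DESeq2. In all, 12 members fell in at least 1 genotype and 31 in neither.

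Related genes outside the 43 were read from lists chosen by function, also with earlier results of these data known. They stand beside 3.76% of all genes that fell in Smarca4+/+ CC and 1.5% in Smarca4+/- CC. Of 38 other fork and origin factors, 4 fell in Smarca4+/+ CC: Top1, the topoisomerase that relaxes DNA ahead of the fork (-1.23, SE 0.22), Clspn, a checkpoint adaptor at forks (-1.66, SE 0.33), Chaf1a, a histone chaperone subunit (-0.96, SE 0.22), and Dnmt1, the maintenance methyltransferase (-0.93, SE 0.23). Of 30 tested genes of other nucleotide synthesis, 3 fell, among them the kinases Cmpk1 (-1.94, SE 0.33) and Dck (-1.39, SE 0.34). Of 25 G1/S control genes, 5 fell: Ccna2, the S phase cyclin (-1.29, SE 0.25), Tfdp1, a partner of E2F factors (-1.03, SE 0.22), Fbxo5 (-2.20, SE 0.52), E2f8 (-1.36, SE 0.36) and Cdkn2c. None of these lists had a member that rose. In Smarca4+/- CC 1 of 38 fork factors fell (Top1, -1.13, SE 0.21), 2 of 30 nucleotide genes fell (Cmpk1, -1.49, SE 0.30, and the reductase subunit Rrm2b, -1.33, SE 0.31) and 0 of 25 G1/S genes passed, again with 0 that rose. The median log2 fold changes in Smarca4+/+ were -0.57, -0.13 and -0.73 for these lists in turn, and in Smarca4+/- -0.41, -0.13 and -0.45. Without Smarca4+/+ CB replicate 2, each of the Smarca4+/+ calls was lost apart from that of Cdkn2c, which was not followed in these fits. Without Smarca4+/- CB replicate 1, replicate 2 or Smarca4+/- CC replicate 1 each of the Smarca4+/- calls was lost. Single Smarca4+/+ CC libraries also moved 3 values: without replicate 1 and without replicate 2 in turn, Fbxo5 was -1.52 and -3.72, E2f8 -0.85 and -2.25 and Dck -0.94 and -2.09.

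The next comparison asks how loss of 1 Smarca4 copy bears on replication genes of centroblasts. In CB 0 of the 43 members passed the test in either direction (edgeR), and 0.0% of all genes rose and 0.0% fell. At an unadjusted p under 0.05 there were 0 members, against 84 of all genes, and DESeq2 also called 0 members. The values were small and mostly on 1 side: 41 members (95.3%) had a log2 fold change (Smarca4+/- over Smarca4+/+) above 0, as did 49.3% of all genes. The members' median was 0.16, against -0.00 for all genes, and their range was -0.08 to 0.61. Both Smarca4+/- libraries lay above both Smarca4+/+ libraries for 22 members (16.2% of all genes), both below for 0 (15.8%), and 21 overlapped.

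The CB libraries were not alike in summed level. Smarca4+/- CB replicate 1 had a summed level of 8321 CPM, while the other 3 CB libraries had 7051 to 7293. Without that library 29 members were above 0 and 14 below, with a median of 0.11. The 3 members with the smallest p were Rrm2, Pcna and Gins4. Rrm2 was 190 and 208 CPM in Smarca4+/+ and 285 and 231 in Smarca4+/- (0.38, SE 0.23). Pcna was 204 and 197 CPM against 261 and 233 (0.30, SE 0.19), and Gins4 15.5 and 16.2 CPM against 25.5 and 23.1 (0.61, SE 0.39). None of the 3 overlapped between genotypes, and each had an edgeR adjusted p of 1. The members below 0 were Cdt1 (-0.08) and Pold1 (-0.03). Among the lists of related genes, 33 of 38 fork factors, 24 of 30 nucleotide genes and 17 of 25 G1/S genes were above 0, with 0 past the test. Zone markers also differed in level: the light zone markers summed to 418 and 392 CPM in Smarca4+/+ CB and 359 and 351 in Smarca4+/- CB (0 of 8 above 0, median -0.21), and the dark zone markers to 1210 and 1272 against 1412 and 1336 (5 of 5 above 0, median 0.13). The macrophage markers summed to 43.2 and 234 CPM against 99.9 and 63.3, which overlapped (0 of 10 above 0, median -0.90). None of these markers passed the test, and their part in the members' values was not tested.

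**Figure D4:**
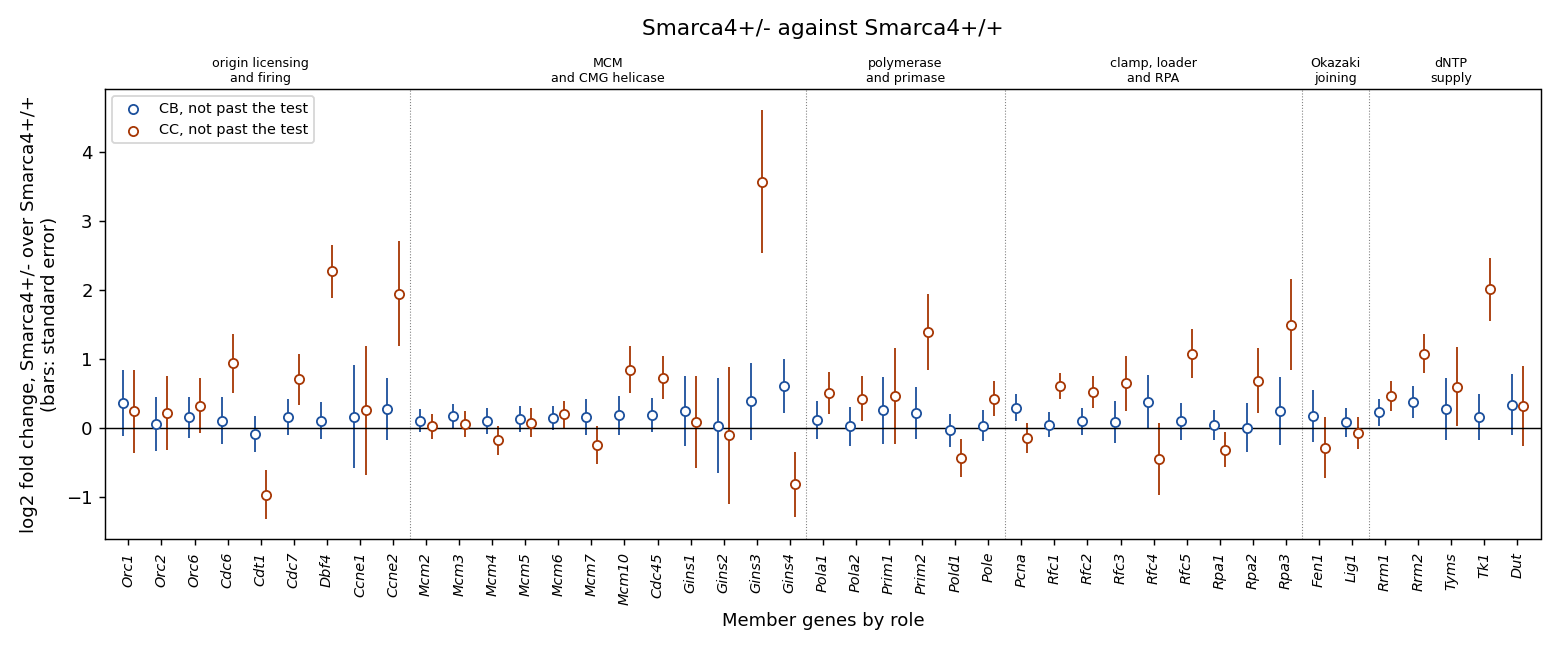
Fitted log2 fold change of Smarca4+/- over Smarca4+/+ for each member by role (bars: standard error), in CB (blue) and in CC (red). No member passed the edgeR test in either fraction, the CB values lie between -0.08 and 0.61, and the CC values spread from -0.96 to 3.57.

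In CC 0 of the 43 members passed the genotype test (edgeR), with 0.0% of all genes higher and 0.0231% lower in Smarca4+/- mice. The smallest adjusted p among members was 0.0948 (edgeR, Dbf4). At an unadjusted p under 0.05 there were 1980 of the 12997 genes, 1144 of them above 0 and 836 below. Among members there were 13, 12 of them above 0 (Dbf4, Tk1, Rrm2, Gins3, Rfc1, Rfc5, Ccne2, Prim2, Mcm10, Cdc45, Rfc2 and Rpa3) and 1 below (Cdt1). In all 32 members (74.4%) were above 0, as were 55.0% of all genes, and the median was 0.43 against 0.03. Both Smarca4+/- libraries lay above both Smarca4+/+ libraries for 18 members (18.1% of all genes) and below for 2 (14.4%), Cdt1 and Gins4, while 23 overlapped. Without Smarca4+/- CC replicate 2, 28 members were above 0 and 15 below, with a median of 0.27.

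The members with the smallest p in CC were Dbf4, Tk1 and Rrm2. Dbf4 stood at 21.4 and 13.1 CPM in Smarca4+/+ CC and at 74.8 and 90.1 in Smarca4+/- CC, without overlap (log2 fold change 2.27, SE 0.38, edgeR adjusted p = 0.0948). Tk1 stood at 10.7 and 32.7 CPM against 70.8 and 106 (2.01, SE 0.45, edgeR adjusted p = 0.124), and Rrm2 at 50 and 81.7 against 131 and 149 (1.08, SE 0.28, edgeR adjusted p = 0.154). The value of Tk1 was 1.43 without Smarca4+/+ CC replicate 1 and 3.04 without replicate 2. These 3 genes are among those that fell in Smarca4+/+ CC against CB, and both comparisons use the same Smarca4+/+ CC libraries. Cdt1 had the lowest value, with 53.6 and 39.2 CPM in Smarca4+/+ CC and 24.0 and 23.7 in Smarca4+/- CC (-0.96, SE 0.35, edgeR adjusted p = 0.244). Gins3 had 2 counts in Smarca4+/+ CC and 32 in Smarca4+/- CC, a scaled ratio of 11.8 (95% exact counting interval 3 to 101). That interval is too narrow, because most low counts were even and it leaves out differences between libraries.

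Values are given by role for genotype in CC, where no member passed the edgeR test and no difference between roles was tested. The 6 subunits of the Mcm ring had log2 fold changes of -0.24 (Mcm7) to 0.20 (Mcm6), and Pcna of -0.14. Their helpers Mcm10 (0.85, SE 0.34) and Cdc45 (0.73, SE 0.31) lay higher. All 5 loader subunits but Rfc4 (-0.45) were above 0, from 0.53 (Rfc2) to 1.08 (Rfc5). Cdc7 had 0.71 (SE 0.37), Cdc6 0.94 (SE 0.43) and Ccne2 1.95 (SE 0.76), the last on 3.57 and 3.27 CPM in Smarca4+/+ CC. Rpa3 (1.5, SE 0.66) and Rpa1 (-0.31, SE 0.25), subunits of a single complex, had values of opposite sign.

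DESeq2, the other count model, called 6 members higher in Smarca4+/- CC, out of 3.58% of all genes that it called higher. They were Dbf4 (2.26, DESeq2 adjusted p = 3.85e-05), Tk1 (1.99, 0.00109), Rrm2 (1.07, 0.00621), Rfc1 (0.60, 0.0154), Rfc5 (1.06, 0.0264) and Gins3. The call thus differed between the tools. The edgeR fit had 4 residual degrees of freedom. By role, the members' summed levels in Smarca4+/- CC over Smarca4+/+ CC were 1.57 for licensing and firing, 1.05 for the helicase, 1.24 for polymerase and primase, 1.2 for clamp, loader and RPA, 0.908 for Okazaki joining and 1.66 for nucleotide supply. In the same libraries the summed T cell markers were 534 and 561 CPM in Smarca4+/+ CC and 310 and 231 in Smarca4+/- CC, and the erythroid markers 636 and 785 against 467 and 128. The macrophage markers were 2820 and 2802 against 3448 and 1465, so they overlapped. Dark zone markers summed to 368 and 410 CPM against 389 and 518 (4 of 5 above 0, median log2 fold change 0.52). Light zone markers summed to 927 and 1303 against 1004 and 1101 (2 of 8 above 0, median -0.13). Of the germinal centre B cell markers, 8 of 10 were above 0 (median 0.12). None of these markers passed the edgeR test, and the part of any of these lists in the difference was not tested.

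Whether the genotype difference itself differed between fractions was tested as an interaction, and 0 members passed (edgeR), with 0.0% of all genes higher and 0.0% lower. The smallest adjusted p among members was 0.419 (edgeR), and 5 members had an unadjusted p under 0.05 (4 above 0 and 1 below), as did 1195 of the 12997 genes (723 above 0 and 472 below). The members with the smallest p were Dbf4 (2.15, SE 0.47), Tk1 (1.85, SE 0.56) and Gins3 (3.17, SE 1.22), where a positive value is a larger Smarca4+/- over Smarca4+/+ ratio in CC than in CB. Without Smarca4+/+ CC replicate 1 and without replicate 2 in turn, Tk1 was 1.26 and 2.87. The Gins3 value rests on the 2 counts of Smarca4+/+ CC. DESeq2 called 2 members higher, Dbf4 (2.15, DESeq2 adjusted p = 0.00241) and Tk1 (1.84, DESeq2 adjusted p = 0.0372), out of 1.52% of all genes. For these genes the CB libraries of both genotypes and the Smarca4+/- CC libraries were at like levels (Dbf4 74.8 to 101 CPM, Tk1 65.3 to 106), and the Smarca4+/+ CC libraries were lower (13.1 and 21.4, and 10.7 and 32.7).

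Several members share exon bases with genes on the opposite strand, and the strand setting of the counting is not given, so their counts are uncertain. Gins2 shares 2758 of 4097 exon bases with Gse1, Fen1 1909 of 2422 with Gm10143 and Orc2 1150 of 3857 with Nif3l1. Rfc2 shares 952 of 6303 with Lat2, Ccne2 609 of 3495 with Ints8 and Rfc5 499 of 4669 with Wsb2. Orc1 shares 376 of 3479 with Gm12743 and Mcm7 321 of 4426 with Ap4m1. Smaller overlaps include those of Lig1 (247 of 4268 with Zswim9), Cdc45 (209 of 3506 with Ufd1) and Rfc4 (194 of 1533 with Eif4a2). Pcna has 2 named pseudogenes. Of the 12 members that fell, Cdc7, Dbf4, Cdt1, Mcm4, Mcm5, Pola1, Pold1, Rfc1 and Rrm2 share no exon base with another annotated gene. In the mouse build GRCm38 (mm10), Dbf4 lies on chromosome 5 from 8396973 to 8422716, Rfc1 on chromosome 5 from 65261850 to 65335670, Rrm2 on chromosome 12 from 24708241 to 24714146, Tk1 on chromosome 11 from 117815526 to 117826092, Cdt1 on chromosome 8 from 122568015 to 122573554, Mcm5 on chromosome 8 from 75109569 to 75128439 and Pold1 on chromosome 7 from 44532746 to 44548849. These spans are whole genes, and each value above sums reads over all exons of a gene.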

How the data were processed

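RNA was measured by bulk sequencing of ribosomal RNA depleted total RNA in 8 libraries. The authors deposited raw counts per gene without normalization, and per the submitters' processing notes they used FastQC, STAR, featureCounts, Subread, R 4.2.1 and build mm10. Tool versions, strand and multimapping settings: not given in the sources used here. Exon length in bases, a column of another unit that the authors deposited, served for the other scale, RPKM. Of 55421 identifiers, 55154 had a symbol in GENCODE M21.

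The analysis used edgeR 4.0.16 in R 4.3.3: filterByExpr (minimum count 10, minimum total 15) left 12997 genes, libraries were scaled by TMM, and a quasi-likelihood model with a mean for each group covered the 8 libraries, with 4 residual degrees of freedom. Tests of 5 contrasts were 2-sided, with Benjamini-Hochberg adjustment over all genes at 0.05. SE is the absolute log2 fold change over the root of F. The script was tested on simulated data. Alternatives were DESeq2 1.42.0, limma-voom (limma 3.58.1), RLE and total count scaling, no filter or a stricter filter (50 counts or more in 2 libraries), replicate blocks, only the groups compared, each library left out, CB thinned to 657641 counts, and halved counts, the last added after seeing the data.

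The members and lists were chosen with earlier results of these data known. Named with statistics were all called members, the 3 with the smallest p where fewer than 5 were called, up to 4 called genes of each related list, and for levels the highest and lowest member of each role and Ccne1, Ccne2, Pcna, Mcm5, Rrm2, Cdt1 and Cdc6. Other members singled out (such as Gins3, Gins4 and Tyms in further comparisons, or Cdkn2c) were chosen after their values were seen. Some genes of the related and marker lists are not reported here by name.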

Additional observations from a re-analysis of the deposited data

How the results depend on the processing

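Of the genes named with a test by the rule, none changed sign in the comparison it was named for under any alternative run. Other members near 0 did: under total count scaling 42 members were above 0 for genotype in CB (41 with TMM), 6 for CC against CB in Smarca4+/+ (3 with TMM) and 8 in Smarca4+/- (5 with TMM). In CB no alternative called a member for genotype, and the count stayed at 0 with each library left out. For genotype in CC the count of 0 became 6 with DESeq2, 3 with no low count filter and 1 with halved counts, and stayed at 0 with each library left out. For CC against CB in Smarca4+/+ the count of 9 became 19 with DESeq2 (1 higher, 18 lower), 1 with limma-voom, 4 with total count scaling, 17 with no filter, 4 with CB thinned and 2 with only the groups compared, and 2 to 16 as libraries were left out. In Smarca4+/- the count of 6 became 12 with DESeq2, 0 with limma-voom, 3 with RLE scaling, 2 with total count scaling, 14 with no filter, 3 with the stricter filter, 2 with CB thinned, 2 with only the groups compared and 13 with halved counts, and 0 to 10 as libraries were left out. The interaction count of 0 became 2 with DESeq2 and stayed at 0 with each library left out. The cause was not tested. DESeq2 called 3.58% of all genes higher for genotype in CC and 1.52% for the interaction. For the other alternatives the share of all genes called is not given here. A changed count of members is thus not by itself a result about the members. Rfc1 in Smarca4+/+ kept its call in 19 of 19 alternatives. For CC against CB in Smarca4+/+ the median of the members was -0.75 with TMM, -0.63 under RLE and -0.56 under total count scaling, where that of all genes was -0.19, -0.07 and -0.00. With CB thinned 32 members were above 0 and 11 below for genotype in CB. For CC against CB in Smarca4+/+, thinning left 6 above 0 and 37 below (median -0.57, all genes 0.02). In Smarca4+/- it left 12 above 0 and 31 below (median -0.43, all genes 0.04). Deviations of libraries with the same replicate number correlated at -0.046 to 0.0527 between groups, so the numbers are not shown to pair libraries. With the replicate block the counts were 9 in Smarca4+/+ (Rfc5 lost its call) and 6 in Smarca4+/-, and with the replicate block within genotype 11 and 11. The depth of the CC libraries limits every comparison that uses them.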
